A study of Homo sapiens with 18 samples.

Results

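The genes that copy DNA in S phase were followed as a list of 46, taken from the steps of replication: origin licensing, helicase activation, the sliding clamp and its loader, the polymerases and primase, the processing and protection of new strands, nucleotide supply, and the E2F factors with cyclin E. The list was chosen with earlier results of these data known. Array features were matched to these genes by symbol, and 45 of the 46 had 1 feature naming only that gene. The exception was RRM1, the large subunit of ribonucleotide reductase, whose feature also names LINC02749, so no value is given for it. All 45 passed the noise filter and were tested among 16336 genes. The cells were HCC4006, a lung adenocarcinoma line with an activating EGFR mutation, and every group was transfected with siRNA: a non-targeting control (NTC) or siRNA against Notch1 (N1) or Notch3 (N3). Each transfected population received DMSO, the solvent, or 0.1 µM erlotinib, an inhibitor of the EGFR kinase, for 5 days as labelled. The 6 groups held 3 arrays each, all of total RNA from bulk cells of 1 line. The N3 erlotinib arrays are numbered 4 to 6 and those of every other group 1 to 3, so that separate handling and N3 knockdown cannot be told apart there. The titles also hold serial numbers, and every DMSO array has a lower one than every erlotinib array. Those of N3 erlotinib lie between those of N1 and NTC erlotinib. Whether the serial numbers follow the handling of the arrays is not stated.

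Before S phase, the origin recognition complex, CDC6 and CDT1 load the MCM2 to MCM7 ring onto DNA as an inactive helicase. CDC7 with DBF4 and cyclin-dependent kinases then switch the ring on by recruiting CDC45 and the GINS complex, and polymerases held by the PCNA clamp copy each strand. Most of these genes are transcribed in a burst at the border of G1 and S phase, when cyclin-dependent kinases release E2F factors from the retinoblastoma protein. In EGFR mutant cells that burst is known to depend on growth signals from the receptor.

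The targeted genes were checked first. NOTCH1 lay at 6.78, 6.87 and 6.88 on the log2 scale of RMA (a background-corrected, normalized and summarized array signal) on the NTC DMSO arrays, and at 6.50, 6.50 and 6.63 on the N1 DMSO arrays (log2 fold change -0.30, limma adjusted p = 0.000291). In erlotinib NOTCH1 was at 6.65, 6.67 and 6.67 with NTC and at 6.54, 6.59 and 6.62 on the arrays labelled N1. That difference of -0.08 missed the threshold (limma adjusted p = 0.214). Against DMSO, NOTCH1 was lower with erlotinib in NTC cells (-0.18, limma adjusted p = 0.00222). It was not called in N1 cells (0.04, limma adjusted p = 0.44). At the protein level, the paper describes both knockdowns as specific and apparently complete on western blots. NOTCH3 was lower with N3 siRNA in DMSO by a log2 fold change of -0.57 (limma adjusted p = 5.75e-06) and in erlotinib by -0.57 (limma adjusted p = 4.11e-06). On the arrays labelled N1 in erlotinib NOTCH3 was higher than with NTC (0.25, limma adjusted p = 0.00818). In DMSO NOTCH3 was not called with N1 (-0.11, limma adjusted p = 0.248). The epithelial markers EPCAM, KRT8, KRT18, KRT19, CDH1 and EGFR ranged from 9.23 to 11.08 over the 18 arrays, whose medians over all features lay between 4.84 and 5.01. Of 9 markers of leukocytes, endothelium and fibroblasts, 4 did not pass the noise filter: PTPRC (2.68 to 2.85), CD3E (4.08 to 4.58), PECAM1 (3.03 to 4.06) and DCN (2.43 to 3.59). The other 5 passed it, CD14 at 4.45 to 5.52, CDH5 at 4.83 to 5.23, VWF at 5.13 to 5.39, PDGFRB at 5.0 to 5.35 and COL1A1 at 6.38 to 6.66, so that each of these cell types had markers on both sides of the filter.

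The promoters of these genes were also searched for short words, apart from their array values. RefSeq promoter windows (GRCh38.p14, 250 bases before to 50 after the annotated start, 300 in all) were found for 41 of the 46 genes and not for MCM4, MCM5, GINS4, E2F8 and CCNE2. An E2F site was searched as any of 4 words (TTTCCCGC, TTTCGCGC, TTTGCCGC, TTTGGCGC) on both strands, with overlaps counted. Such a word stood in the windows of 24 of the 41 genes (58.5%), against 1090 of 27305 genes with a window (3.99%). Of the 34 matches, 27 began within 100 bases before the start or after it, in 22 genes. CCAAT, the word bound by NF-Y, was also in 24 of the 41 (58.5%), against 39.7% of the genes with a window. The CHR words TTTGAA and TTCGAA, known from genes that peak later, in G2 and mitosis, were in 3 (7.32%), against 19.5%. The windows of CDC6 and CLSPN hold an E2F word at or after the start, whereas those of MCM10, RRM2 and ORC1 hold none. A match is a string of letters and not a measured site.

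The last 100 bases before the start are shown for 5 genes with whole E2F words there and for POLD1, whose windows hold none. Capitals mark the E2F words, and the lines run 5′ to 3′ along the gene's strand.
MCM6 (chr2:135876444-135876543, minus strand): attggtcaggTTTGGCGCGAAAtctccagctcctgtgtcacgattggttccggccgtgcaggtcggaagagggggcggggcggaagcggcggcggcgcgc
PCNA (chr20:5126623-5126722, minus strand): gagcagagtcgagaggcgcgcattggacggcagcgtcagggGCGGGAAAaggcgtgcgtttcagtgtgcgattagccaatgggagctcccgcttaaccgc
TYMS (chr18:657553-657652, plus strand): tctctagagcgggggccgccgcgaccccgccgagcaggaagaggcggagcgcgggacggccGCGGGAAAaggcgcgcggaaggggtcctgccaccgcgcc
GINS2 (chr16:85688955-85689054, minus strand): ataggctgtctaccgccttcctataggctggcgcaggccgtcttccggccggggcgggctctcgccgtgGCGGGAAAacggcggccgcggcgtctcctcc
E2F1 (chr20:33686386-33686485, minus strand): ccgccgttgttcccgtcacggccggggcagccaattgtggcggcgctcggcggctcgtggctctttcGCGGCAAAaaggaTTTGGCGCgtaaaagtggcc
POLD1 (chr19:50384223-50384322, plus strand): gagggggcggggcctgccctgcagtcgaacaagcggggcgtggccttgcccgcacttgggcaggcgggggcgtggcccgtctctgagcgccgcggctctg

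In MCM6 the capitals are 2 words that overlap on opposite strands, and 2 further words lie upstream of the bases shown. E2F1 carries 2 separate words in its own promoter, on opposite strands. PCNA, TYMS and GINS2 hold the same word, read on the opposite strand as GCGGGAAA. The letters did not sort the genes by the size of their fall with erlotinib: the median log2 fold change in NTC cells was -1.36 over the 24 genes with an E2F word and -1.68 over the 16 tested genes without one, and both sets spanned most of the range (-2.84 to -0.52 and -2.72 to -0.39).

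**Figure D1:**
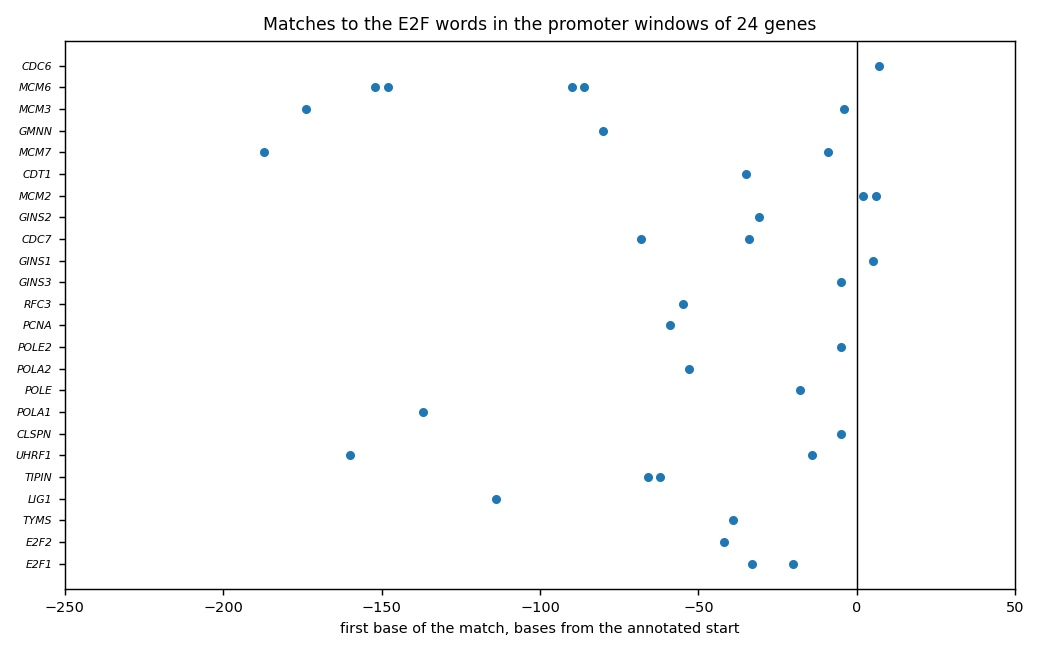
Position of each E2F word in the promoter windows of the 24 genes that hold one. The x axis is the first base of the match in bases from the annotated start (vertical line) and each row is a gene, ordered by role. Most of the 34 matches lie within 100 bases of the start.

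The first comparison asked what the drug did in control cells. All 45 genes fell with erlotinib in NTC cells at a limma adjusted p under 0.05, where 25.4% of all genes tested were called lower and 24.6% higher. The 3 erlotinib arrays lay below the 3 DMSO arrays for all 45, as they did for 27.2% of all genes. The median log2 fold change was -1.50, against -0.02 over all 16336 genes. The changes ran from -2.84 (CDC6) to -0.39 (POLD1), with adjusted p from 2.07e-16 (MCM10) to 0.000236 (GINS3). At the thresholds of the Methods (unadjusted p under 5e-04 and at least 2-fold), 33 of the 45 were lower, against 2.29% of all genes. The list was chosen with earlier results known, so these shares are not independent of the data. Subunits of the same complexes outside the list, some of them higher, are given below. In bulk RNA, fewer cells in S phase and less RNA per cell cannot be told apart.

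**Figure D2:**
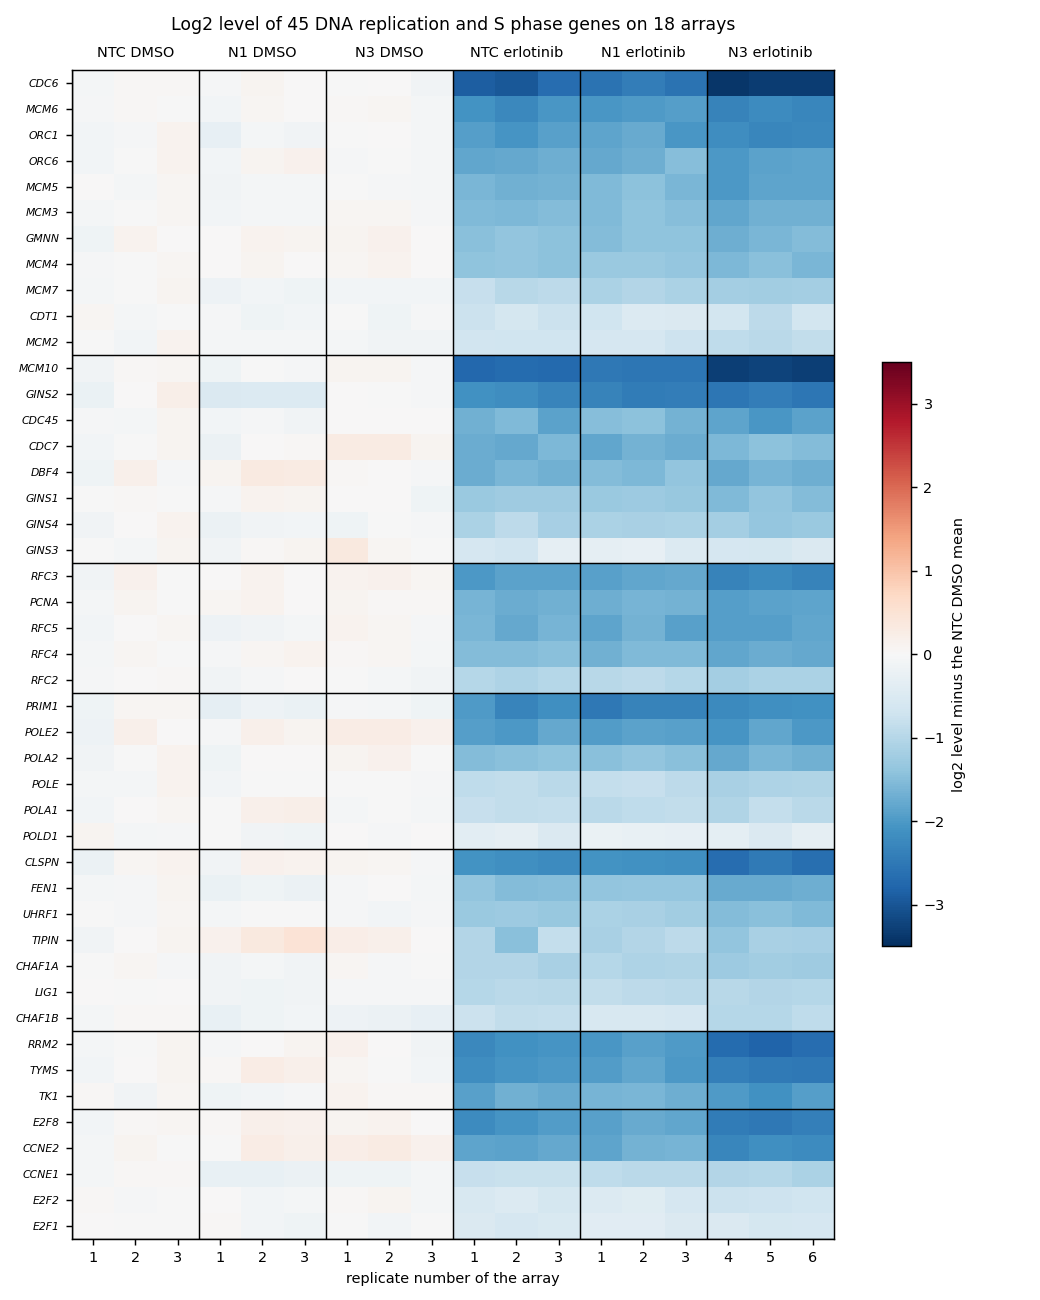
Log2 level of each of the 45 genes (rows, by role group, separated by lines) on each of the 18 arrays (columns, by group and replicate number), minus the gene's mean over the 3 NTC DMSO arrays. The 9 DMSO columns are near 0 for most genes, and all 9 erlotinib columns are lower, with the lowest values for CDC6 and MCM10 on the N3 erlotinib arrays.

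All 11 licensing genes fell, with a median of -1.54. CDC6, the ATPase that loads the MCM ring, lay at 8.64, 8.75 and 8.75 on the NTC DMSO arrays and at 5.76, 5.82 and 6.05 on the NTC erlotinib arrays (values from lowest to highest, here and below). That is a 7.14-fold lower level (log2 fold change -2.84, SE 0.07). ORC1, the subunit of the origin recognition complex that comes and goes with the cycle, went from 7.17, 7.23 and 7.40 to 5.19, 5.34 and 5.37, and ORC6 fell by 1.77 on the log2 scale. The 6 ring subunits, which act in equal numbers, did not have equal fold changes: MCM6 had -2.13 (9.23, 9.25 and 9.30 to 7.0, 7.16 and 7.22), MCM5 -1.65, MCM3 -1.54, MCM4 -1.41, MCM7 -0.90 and MCM2 -0.68. MCM2 still separated fully, with 7.67, 7.76 and 7.90 in DMSO and 7.08, 7.09 and 7.11 in erlotinib. Each feature has its own response to RNA, so fold changes of different genes are side by side and were not tested against each other. CDT1, the second MCM loader, had -0.71 and geminin (GMNN), which blocks CDT1 after origins have fired, -1.42.

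Of the 8 genes of helicase activation, MCM10, which helps the loaded helicase start to unwind, had the lowest value. Its level was 8.57, 8.72 and 8.75 in DMSO and 5.92, 5.97 and 5.98 in erlotinib, a 6.60-fold fall (log2 fold change -2.72, SE 0.05). GINS2 followed with 7.68, 7.93 and 8.11 against 5.59, 5.72 and 5.79 (-2.21, SE 0.08). The rest of the 4-part GINS complex had -1.26 (GINS1), -1.06 (GINS4) and -0.52 (GINS3), the last with 6.22, 6.28 and 6.39 against 5.64, 5.71 and 5.99. CDC45, the third partner of the active helicase, had -1.69. The kinase CDC7 and its activating subunit DBF4 had like values, -1.69 and -1.68. On the NTC erlotinib arrays CDC7 (4.88, 4.94 and 5.10) and GINS4 (4.86, 4.91 and 5.10) lay near the noise limit, each array's median over all features.

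The clamp and its loader fell by 1.68 on the log2 scale at the median. PCNA, the ring that tethers polymerases, was at 9.53, 9.60 and 9.70 in DMSO and at 7.88, 7.93 and 7.98 in erlotinib (-1.68, SE 0.05). Among the small subunits of replication factor C, which opens the clamp, RFC3 went from 8.64, 8.76 and 8.91 to 6.77, 6.89 and 6.91 (-1.91), RFC5 had -1.68, RFC4 -1.50 and RFC2 -1.04. All 5 passed the 2-fold threshold of the Methods.

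The 6 polymerase and primase genes had a median of -1.19. PRIM1, the catalytic subunit of primase, had 8.37, 8.58 and 8.58 in DMSO and 6.19, 6.36 and 6.54 in erlotinib (-2.15, SE 0.08). POLE2, an accessory subunit of the leading strand polymerase, had 7.60, 7.80 and 7.95 against 5.78, 5.85 and 6.00 (-1.91), and POLA2, which joins polymerase alpha to primase, -1.46. The catalytic polymerase subunits had the smaller changes: POLE had -0.91, POLA1 -0.83 and POLD1, of the lagging strand polymerase, -0.39. POLD1 was at 6.84, 6.86 and 6.99 in DMSO and at 6.40, 6.54 and 6.57 in erlotinib. Its groups did not overlap, but it was the smallest change of the 45. Across the 45 genes, a lower level in N1 DMSO tended to go with a smaller fall in NTC cells. The Spearman correlation of that level with the log2 fold change was -0.451, and its cause was not tested.

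Another 7 genes act behind or beside the fork. Claspin (CLSPN), which carries the checkpoint signal from a stalled fork, was at 7.25, 7.53 and 7.57 in DMSO and at 5.26, 5.29 and 5.35 in erlotinib (-2.15, SE 0.08). TIPIN, which holds the fork complex together, was the least even on the arrays, with 6.47, 6.60 and 6.69 against 5.12, 5.56 and 5.74 (-1.11, SE 0.13). FEN1, which trims the flaps of Okazaki fragments, had 8.65, 8.67 and 8.80 against 7.20, 7.21 and 7.32 (-1.46), and LIG1, which then seals them, -0.96. The histone chaperones CHAF1A and CHAF1B had -1.06 and -0.81, and UHRF1, which brings the maintenance DNA methyltransferase to new DNA, -1.29.

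All 3 measured genes of nucleotide supply fell more than 3-fold. RRM2, the S phase subunit of ribonucleotide reductase, went from 8.69, 8.74 and 8.85 to 6.51, 6.65 and 6.70 (-2.14, SE 0.07). TYMS, which makes thymidylate, went from 8.34, 8.44 and 8.54 to 6.26, 6.38 and 6.42 (-2.09), and TK1, which salvages thymidine, from 8.91, 9.05 and 9.10 to 7.13, 7.25 and 7.35 (-1.78). Each gene was lower on every erlotinib array than on every DMSO array.

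Within the E2F and cyclin E group the values fell into 2 ranges. E2F8, a repressor that E2F activity itself switches on, was at 7.77, 7.89 and 7.92 in DMSO and at 5.67, 5.79 and 5.90 in erlotinib (-2.07, SE 0.06), and CCNE2 had -1.84. The activators E2F1 and E2F2 had -0.54 and -0.55 and CCNE1, the other cyclin E, -0.80. E2F1 was at 6.78, 6.80 and 6.83 in DMSO and at 6.22, 6.27 and 6.30 in erlotinib, a small change with no overlap.

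The same drug comparison was made with each Notch siRNA. In N1 cells all 45 genes were lower (23.7% of all genes were called lower, 31.7% higher), with a median of -1.44 against 0.08 over all genes, and 31 passed the thresholds of the Methods (2.2% of all genes). In N3 cells all 45 were lower (27.7% of all genes were lower, 24.9% higher), with a median of -1.72 against 0.01, and 35 passed the thresholds of the Methods (2.85% of all genes). CDC6 had -2.55 in N1 and -3.31 in N3 cells, MCM10 -2.46 and -3.33, and RRM2 -2.00 and -2.74. POLD1 again had the smallest change, -0.16 in N1 (limma adjusted p = 0.0321) and -0.39 in N3 cells. In N1 cells its call was lost without N1 erlotinib replicate 2 (limma adjusted p = 0.0731), N1 erlotinib replicate 3 (0.0806) or N1 DMSO replicate 1 (0.114). Each of these comparisons has its own DMSO arrays, so their differences can be tested, as given further on.

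**Figure D3:**
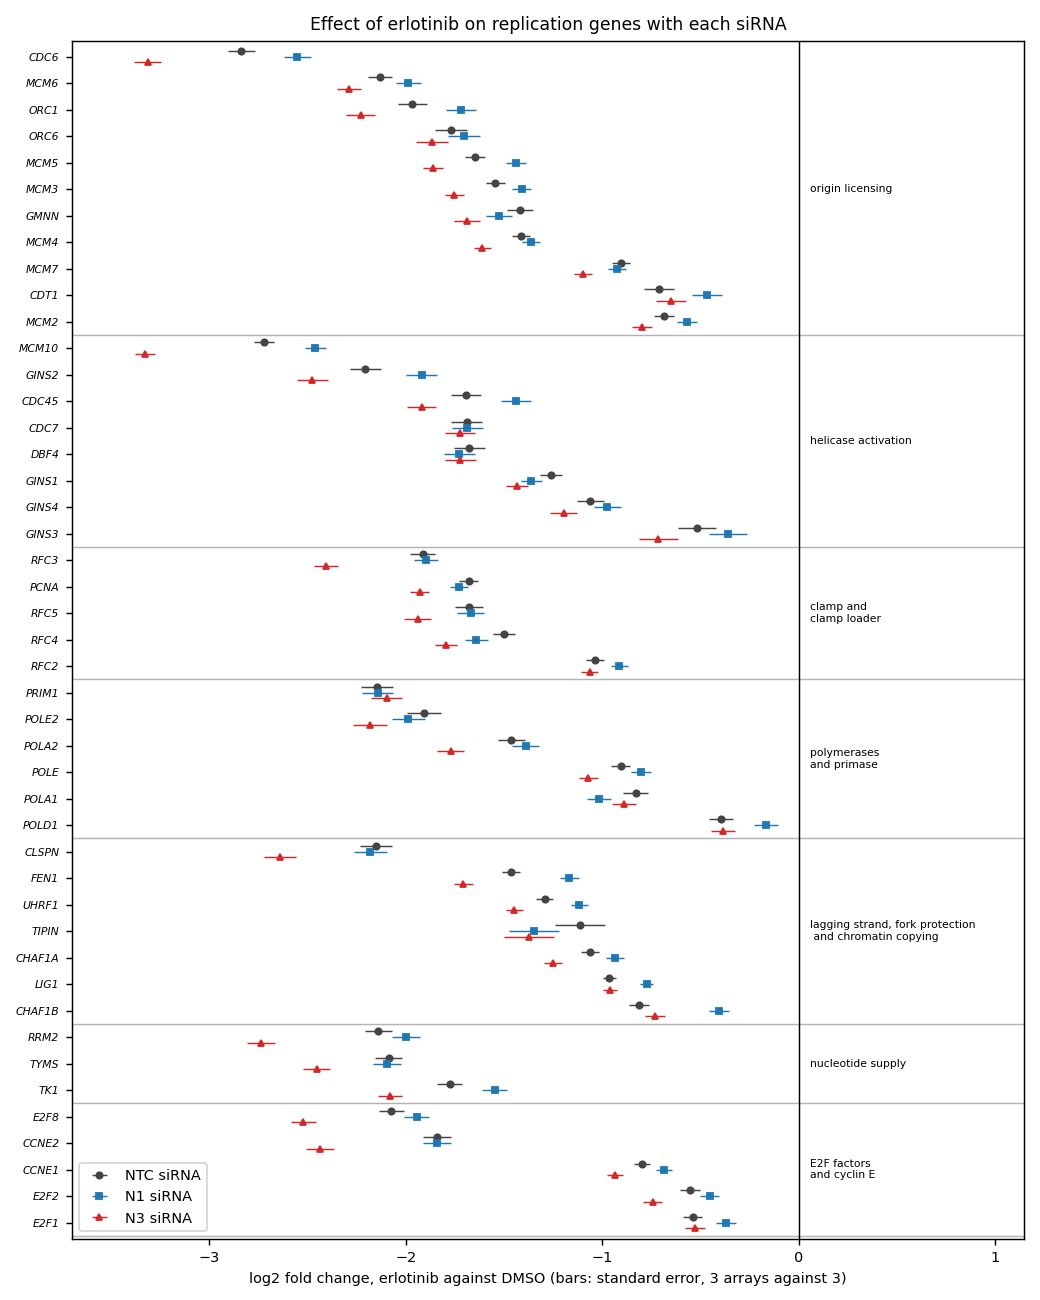
Log2 fold change of erlotinib against DMSO for the 45 genes with NTC (circles), N1 (squares) and N3 siRNA (triangles). Bars are standard errors from limma, and genes are ordered by role and then by the NTC value. All points lie below 0, and the N3 point lies left of both others for most genes, among them CDC6, MCM10, RRM2, CCNE2, RFC3 and CLSPN.

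The next comparisons asked whether Notch knockdown moved these genes in DMSO. With N1 siRNA 6 of 45 genes were lower (13.3%, against 6.97% of all genes) and 0 higher (7.75% of all genes), with a median of -0.05 against -0.04 over all genes. The 6 were GINS2, CCNE1, FEN1, CHAF1B, MCM7 and LIG1. GINS2 was at 7.68, 7.93 and 8.11 with NTC and at 7.41, 7.43 and 7.44 with N1 (-0.48, SE 0.08, limma adjusted p = 0.000745). CCNE1 was at 7.62, 7.72 and 7.73 with NTC and at 7.42, 7.44 and 7.49 with N1 (-0.24, limma adjusted p = 0.00118). The 4 others had -0.19 (FEN1), -0.17 (CHAF1B), -0.14 (MCM7) and -0.13 (LIG1). Outside GINS2 these are changes of less than 1.2-fold. The 2 groups of arrays did not overlap for 10 of the 45 genes (22.2%), the 6 called and MCM3, PRIM1, CHAF1A and TIPIN, a share near the 25.9% of all genes.

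Same-numbered arrays of NTC and N1 in DMSO varied together, so this comparison is also given with a replicate block. Fitted on the 6 compared arrays with the block, limma called 6 genes lower, among them PRIM1 (-0.24) in place of MCM7, and 3 higher: TIPIN (0.32), DBF4 (0.24) and TYMS (0.17). With the block over the 15 arrays numbered 1 to 3, it called 4 lower, CCNE1, FEN1, GINS2 and LIG1, and 0 higher. The counts moved with single arrays: 5 genes were higher without N1 DMSO replicate 1 and 1 without NTC DMSO replicate 2, and 3 were lower without N1 DMSO replicate 2.

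With N3 siRNA in DMSO, 1 gene of 45 was lower (4.8% of all genes) and 0 higher (7.24% of all genes). The gene was CHAF1B, at 7.83, 7.93 and 7.94 with NTC and at 7.60, 7.70 and 7.71 with N3 (-0.23, limma adjusted p = 0.00521). The median was 0.00 against -0.02 over all genes. CCNE2, POLE2 and CDC7 had the highest values, 0.22, 0.22 and 0.21, and did not pass. Without NTC DMSO replicate 1 the lower genes were 2, and the higher ones were 2 without NTC DMSO replicate 2 and 1 without N3 DMSO replicate 3.

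**Figure D4:**
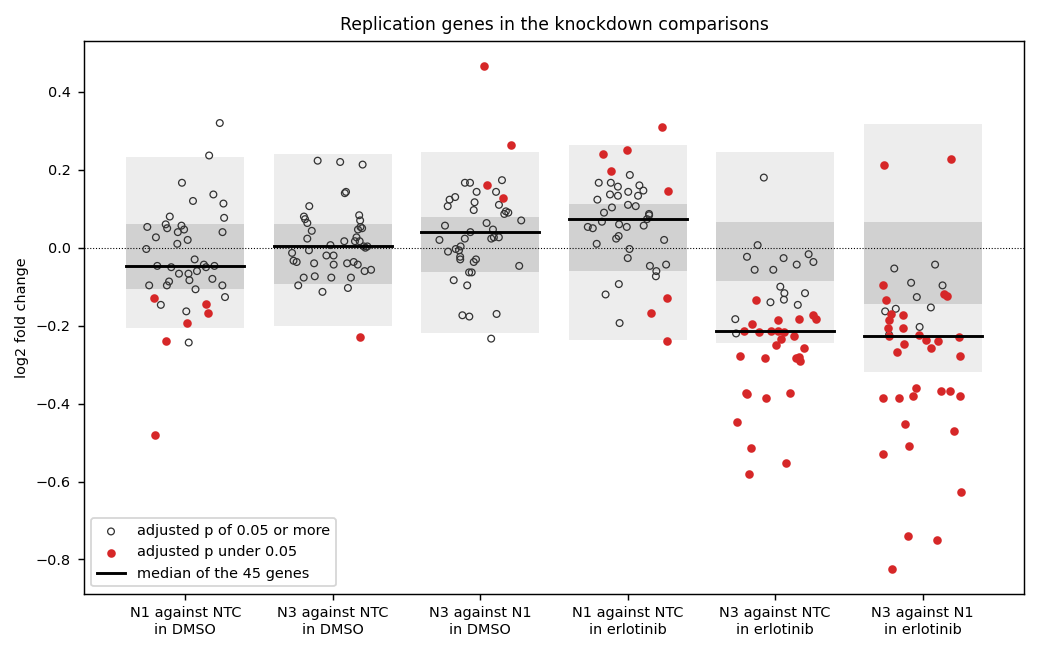
Log2 fold change of the 45 genes (points, filled at a limma adjusted p under 0.05) in the 6 comparisons between siRNAs, with their median (line). Grey bars span the 5th to 95th percentile of all 16336 genes and darker bars the 25th to 75th. In erlotinib, the points of N3 against NTC and against N1 lie mostly below the darker bar, with medians of -0.21 and -0.23, while the other 4 medians are between -0.05 and 0.07.

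In erlotinib, the arrays labelled N1 differed from NTC in both directions. NOTCH1 was not called lower on these arrays and NOTCH3 was higher, as given above. Of the 45 genes 3 were lower (6.67%, against 9.15% of all genes) and 5 higher (11.1%, against 11.9% of all genes), shares near those of all genes, and the median was 0.07 against 0.03. The higher genes were CDC6 (0.31), E2F8 (0.25), CHAF1B (0.24), MCM10 (0.20) and UHRF1 (0.15). CDC6 was at 5.76, 5.82 and 6.05 with NTC and at 6.14, 6.14 and 6.28 with N1 (limma adjusted p = 0.00395). The lower genes were PRIM1 (-0.24), MCM7 (-0.17) and CCNE1 (-0.13). Without N1 erlotinib replicate 2 the higher genes were 3, and without NTC erlotinib replicate 1 they were 2. The lower genes were 0 or 1 without N1 erlotinib replicate 1 or 2 or NTC erlotinib replicate 1 or 3.

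With N3 siRNA in erlotinib the list was lower as a group, on the arrays where separate handling and knockdown cannot be told apart. Here 28 of 45 genes were lower (62.2%, against 10.5% of all genes) and 0 higher (7.93% of all genes), the median was -0.21 against -0.01 over all genes, and 43 of 45 values were below 0. These are second steps down from levels that erlotinib had already lowered in NTC cells, and all were smaller than 1.5-fold. The adjusted p of the 28 ran from 9.83e-07 (MCM10) to 0.0483 (MCM4).

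All 3 measured list members of nucleotide supply were lower. RRM2 was at 6.51, 6.65 and 6.70 with NTC and at 5.95, 6.08 and 6.09 with N3 (-0.58, SE 0.07, limma adjusted p = 1.55e-05). TYMS had -0.37 and TK1 -0.23. In helicase activation 4 of 8 were lower, led by MCM10, which went from 5.92, 5.97 and 5.98 to 5.38, 5.39 and 5.44 (-0.55, SE 0.05). GINS2 had -0.28, GINS1 -0.21 and GINS4 -0.21. CDC7, the kinase that fires origins, had the opposite sign, at 4.88, 4.94 and 5.10 with NTC and 5.09, 5.15 and 5.22 with N3 (0.18, limma adjusted p = 0.126). These groups overlapped for CDC7, and its partner DBF4 had -0.04. In erlotinib CDC7 lay near the noise limit, the array medians over all features of 4.94 to 5.01. GINS4 with N3 lay below that limit, at 4.67, 4.72 and 4.84. CDC45 (-0.22, limma adjusted p = 0.052) and GINS3 (-0.06) did not pass either.

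In licensing 7 of 11 were lower. CDC6 was at 5.76, 5.82 and 6.05 with NTC and at 5.31, 5.39 and 5.39 with N3 (-0.51, SE 0.07, limma adjusted p = 4.53e-05), and MCM7 had -0.29, ORC1 -0.28, MCM5 -0.26, MCM2 -0.22, MCM3 -0.18 and MCM4 -0.13. MCM6 (-0.13), GMNN (-0.18), ORC6 (-0.14) and CDT1 (-0.02) did not pass. Of the clamp and its loader 4 of 5 were lower, from RFC3 (-0.39) and RFC4 (-0.28) to RFC5 (-0.22) and PCNA (-0.20), and RFC2 had -0.10 without passing.

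The polymerases stood nearest to the NTC level, with 2 of 6 lower, POLA2 (-0.23) and POLE (-0.18). PRIM1, among the genes most reduced by the drug, had -0.03, POLE2 -0.06, POLA1 -0.12 and POLD1 0.01. Beside the fork 4 of 7 were lower: CLSPN (-0.45), FEN1 (-0.28), UHRF1 (-0.21) and CHAF1A (-0.19). LIG1 had -0.04 and TIPIN -0.12, and their groups overlapped, and CHAF1B had -0.15 (limma adjusted p = 0.0527). Of the E2F and cyclin E group 4 of 5 were lower, E2F8 (-0.38), CCNE2 (-0.37), CCNE1 (-0.25) and E2F2 (-0.17), while E2F1 had -0.02. With N3, CLSPN (4.78, 4.81 and 4.97), CCNE2 (4.88, 4.97 and 5.02) and ORC1 (4.97, 5.00 and 5.08) also lay near the noise limit. Leaving out 1 array at a time gave 20 to 26 lower genes, and none of the 28 changes reached the 2-fold threshold of the Methods.

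**Figure D5:**
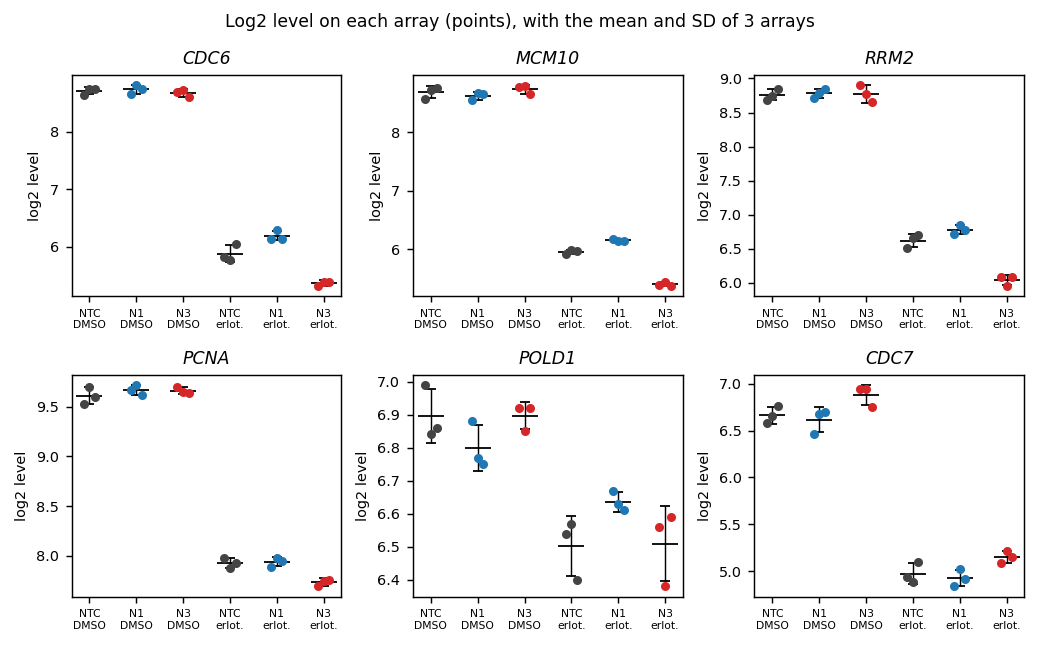
Log2 level of CDC6, MCM10, RRM2, PCNA, POLD1 and CDC7 on each array (points), by group, with the mean and SD of 3 arrays; each panel has its own y axis, which does not start at 0. The erlotinib arrays of every group lie below the DMSO arrays. N3 is lowest among the erlotinib groups for CDC6, MCM10, RRM2 and PCNA, and not for POLD1 or CDC7.

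The Notch siRNAs were also compared with each other. In DMSO, N3 against N1 gave 0 lower genes (7.48% of all genes) and 4 higher ones (8.89%, against 9.91% of all genes): GINS2 (0.47), CDC7 (0.26), FEN1 (0.16) and CCNE1 (0.13). The higher genes were 1 or 2 without N1 DMSO replicate 1 or 3 or N3 DMSO replicate 1 or 2, and 3 genes were lower without N1 DMSO replicate 1. In erlotinib, 33 of 45 were lower with N3 (73.3%, against 20.9% of all genes) and 2 higher (4.44%, against 13.8% of all genes). CDC6 was at 6.14, 6.14 and 6.28 with N1 and at 5.31, 5.39 and 5.39 with N3 (-0.82, limma adjusted p = 1.98e-07). MCM10 had -0.75, RRM2 -0.74, E2F8 -0.63, TYMS -0.53 and CCNE2 -0.51. The higher genes were CDC7 (0.23) and PRIM1 (0.21), each with a limma adjusted p over 0.03, and their count was 0 or 1 when any 1 of the 6 arrays was left out. CDC7 lay near the noise limit in both groups. Between these groups NOTCH3 differed by -0.82 and NOTCH1 was not called (0.05, limma adjusted p = 0.426). Separate handling of the N3 erlotinib arrays cannot be told apart from knockdown here either.

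Whether the drug's effect itself differed with the siRNA was tested as an interaction. With N3 the erlotinib effect was more negative for 11 of 45 genes (24.4%, against 4.27% of all genes) and less negative for 0 (1.63% of all genes). The largest were MCM10 (-0.60, SE 0.07, limma adjusted p = 7.34e-05), RRM2 (-0.60) and CCNE2 (-0.60). RFC3, CLSPN, CDC6 and E2F8 had -0.49, -0.49, -0.48 and -0.45. TYMS (-0.37), RFC4 (-0.30), PCNA (-0.25) and FEN1 (-0.24) completed the 11. The count was 7 without NTC DMSO replicate 1, NTC erlotinib replicate 3, N3 DMSO replicate 1 or 2, or N3 erlotinib replicate 4. On the N3 erlotinib arrays CCNE2 and CLSPN lay near the noise limit. Separate handling of those arrays and N3 knockdown cannot be told apart in this term.

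With N1 the effect was less negative for 4 genes (8.89%, near the 8.04% of all genes) and more negative for 0 (6.04% of all genes). They were CHAF1B (0.41, limma adjusted p = 0.00221), FEN1 (0.30), MCM10 (0.26) and LIG1 (0.19). CHAF1B was lower with N1 in DMSO and higher with N1 in erlotinib. The same term was positive for NOTCH3 (0.35, limma adjusted p = 0.0152) and for NOTCH1 (0.22, limma adjusted p = 0.0284). NOTCH3 rose with erlotinib in N1 cells (0.35). NOTCH1 instead fell in NTC cells (-0.18) and was not called in N1 cells (0.04). The count was 2 without N1 erlotinib replicate 1, 7 without NTC DMSO replicate 2 and 9 without N1 erlotinib replicate 3, and 1 gene was more negative without N1 DMSO replicate 1.

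Other genes of the same pathway, 63 of them measured, placed the list in its setting. In NTC cells 46 of the 63 fell with erlotinib (73.0%, against 25.4% of all genes) and 7 rose (11.1%, against 24.6%), with a median of -0.61. All 5 genes around CDK2 fell, led by CCNA2, the S and G2 phase cyclin, which had the lowest value (-3.00). Among 13 other origin and helicase factors 10 fell, with TICRR (-2.31), which helps CDC45 load, WDHD1 (-1.99), MCM8 (-1.16) and MTBP (-1.08) the lowest, and ORC4 rose (0.24). Of 15 other fork subunits 14 fell, led by the clamp unloader ATAD5 (-1.84), DSCC1 (-1.71), RNASEH2A (-1.64) and TIMELESS (-1.57), and POLD4 rose (0.18). On the NTC erlotinib arrays DSCC1 lay below the noise limit, at 4.79, 4.82 and 4.91.

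The remaining branches stand beside the same shares of all genes, and differences between branches were not tested. Of the 5 translesion polymerases, which copy damaged DNA, REV3L (0.78), POLI (0.39) and POLK (0.27) rose and POLH fell (-0.40). Among 10 other E2F, DP and pocket proteins, E2F7 (-2.03), RBL1 (-1.43), TFDP1 (-0.76), E2F4 (-0.40) and RB1 (-0.34) fell, whereas TFDP2 (0.59) and RBL2 (0.37), a pocket protein known from quiescent cells, rose. All 5 genes of the other nucleotide supply of dividing cells fell, with CTPS1 (-1.07) the lowest. Of 4 nucleotide genes used outside S phase, only DGUOK (-0.24), a mitochondrial kinase, passed. Of 6 genes for copying chromatin and methylation 5 fell, led by HELLS (-1.93), ASF1B (-1.25) and DNMT1 (-1.03).

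SAMHD1, which breaks down the nucleotides that RRM2 helps to make, was higher with either Notch siRNA. The log2 fold change against NTC was 0.98 with N1 and 0.59 with N3 in DMSO, and 0.79 and 0.50 in erlotinib (limma adjusted p = 1.1e-06, 0.00015, 6.9e-06 and 0.000465). With N3 in erlotinib, 13 of the 63 genes were lower (20.6%, against 10.5% of all genes) and 4 higher (6.35%, below the 7.93% of all genes). CCNA2 (-0.78), RPA2, a subunit of the protein that coats single-stranded DNA (-0.59), TICRR (-0.53) and SKP2 (-0.51) had the lowest values. With N3, TICRR lay below the noise limit, at 4.58, 4.89 and 4.94. The 4 higher were SAMHD1 (0.50), ORC3 (0.22), RB1 (0.18) and DNMT1 (0.14). Of the other nucleotide supply of dividing cells, 1 of 5 genes was lower (20%, against 10.5% of all genes) and 0 were higher (7.93% of all genes).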

How the data were processed

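HCC4006 RNA was measured on Affymetrix Human Transcriptome Array 2.0. The authors corrected the background, normalized and summarized probes with RMA, and the deposited values are log2 levels with 2 decimals, not centered per gene. Neither the RMA version nor the genome annotation is given in the sources used here. The labels give 5 days of drug and the Methods 6.

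Of 70523 features, 23781 name 1 gene. Features above their array's 50th percentile on at least 3 arrays were kept, and the feature of highest mean stood for each gene, which gave 16336 genes. Symbols were updated by Entrez ID. R 4.3.3 and limma 3.58.1 (lmFit, contrasts.fit, eBayes) fitted the 6 group means over all 18 arrays, and Benjamini-Hochberg adjustment ran over all genes of each of the 11 comparisons. The scripts were tested on simulated data. Nothing says that arrays came from separate cultures, so p-values measure the spread between arrays, which may be technical, and the number of arrays limits the precision. Comparisons that share arrays are not independent.

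Same-numbered arrays deviated together only for NTC and N1 in DMSO (correlations 0.687, 0.243 and 0.493). The members and gene lists were chosen with earlier results of these data known. Per role group, the 2 members with the largest and the 1 with the smallest change in NTC cells were given by array, and for the other comparisons the 3 lowest and 3 highest members called; other lists name up to 4 called genes with the largest change and those against the list's majority. Members given by array beyond this rule were chosen after their values were seen. Alternatives were other noise limits, normalizations and limma settings, the compared arrays alone, the replicate block, the thresholds of the Methods and each array left out.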

Additional observations from a re-analysis of the deposited data

Results flagged for a closer look

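The effect of erlotinib differed between siRNAs for 15 pairs of gene and siRNA by the interaction term of limma (adjusted p under 0.05 over all genes). Of these, 4 were with N1 (8.89% of the 45, near the 8.04% of all genes called in that direction). The other 11 were with N3 (24.4%, against 4.27%). Compared with NTC, the log2 effect was less negative with N1 for CHAF1B by 0.41 (SE 0.07, adjusted p = 0.00221), FEN1 by 0.30 (SE 0.07, 0.00939), LIG1 by 0.19 (SE 0.05, 0.0181) and MCM10 by 0.26 (SE 0.07, 0.0269). With N3 it was more negative for MCM10 (-0.60, SE 0.07, adjusted p = 7.34e-05), RRM2 (-0.60, SE 0.10, 0.00117), CCNE2 (-0.60, SE 0.10, 0.00161), RFC3 (-0.49, SE 0.09, 0.00241) and E2F8 (-0.45, SE 0.09, 0.00507). The same held for CDC6 (-0.48, SE 0.10, 0.0058), CLSPN (-0.49, SE 0.12, 0.0167), PCNA (-0.25, SE 0.07, 0.0347), TYMS (-0.37, SE 0.10, 0.036), RFC4 (-0.30, SE 0.08, 0.0367) and FEN1 (-0.24, SE 0.07, 0.0367). MCM10 and FEN1 were thus called with both siRNAs, in opposite directions, in 2 tests that share the NTC arrays. The N3 terms rest on the N3 erlotinib arrays, where separate handling and knockdown cannot be told apart. All groups hold 3 arrays, so no array was tested as an outlier.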

How the results depend on the processing

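The 45 genes called lower with erlotinib were 45 in each of NTC, N1 and N3 cells in the fit over all 18 arrays. The call of POLD1 in N1 cells was lost without N1 erlotinib replicate 2, N1 erlotinib replicate 3 or N1 DMSO replicate 1 (adjusted p from 0.0731 to 0.114), where 44 genes were lower. The single-gene directions did not reverse in any alternative where a gene was called. The median log2 fold change with erlotinib was -1.50 in NTC cells and -1.60 at a noise limit of the 75th percentile, which tests fewer of the genes; with array medians subtracted it moved from -1.44 to -1.53 in N1 and from -1.72 to -1.83 in N3 cells.

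In DMSO, N1 against NTC gave 6 lower and 0 higher genes. The lower genes were 10 with quantile normalization, 2 with array medians subtracted, 1 with only the compared arrays and 0 at the thresholds of the Methods (3 to 6 with arrays left out); the higher genes were 1 at the 75th percentile, 1 with trend and robust fitting and 3 with the replicate block over the compared arrays (0 to 5). With the replicate block over 15 arrays 4 genes were lower and 0 higher. N3 against NTC in DMSO gave 1 lower gene, which became 4 with quantile normalization, 0 with medians subtracted, 0 with the block and 0 at the Methods' thresholds (1 to 2), and 0 higher genes, which became 1 at the 75th percentile and 1 with the block over 15 arrays (0 to 2). N3 against N1 in DMSO gave 4 higher genes, with 1 after medians were subtracted, 2 with the block over 15 arrays, 1 with the block over the compared arrays and 0 at the Methods' thresholds (1 to 3), and 0 lower genes, with 2 at the 75th percentile and 1 each with quantile normalization, trend and robust fitting, only the compared arrays and the block over 15 arrays (0 to 3).

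In erlotinib, N1 against NTC gave 5 higher genes, 3 with medians subtracted and 0 at the Methods' thresholds (2 to 6), and 3 lower genes, 1 without the noise filter and 0 with medians subtracted, only the compared arrays, the replicate block over them or the Methods' thresholds (0 to 2). N3 against NTC gave 28 lower genes, and 0 at the Methods' thresholds (20 to 26 with arrays left out). N3 against N1 gave 33 lower genes, and 0 at the Methods' thresholds (27 to 30), and 2 higher genes, 1 without the noise filter, 1 with quantile normalization, 0 with medians subtracted and 0 at the Methods' thresholds (0 to 1).

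The erlotinib effect was more negative with N3 for 11 genes, 7 without the noise filter and 0 at the Methods' thresholds (7 to 16 with arrays left out). It was less negative with N1 for 4 genes, 7 at the 75th percentile, 10 with quantile normalization, 1 with medians subtracted, 7 with trend and robust fitting, 2 with only the compared arrays and 0 at the Methods' thresholds (2 to 9), and more negative for 0 (0 to 1). The cause of these moves was not tested. The replicate block could not be fitted with the N3 erlotinib arrays, which share 0 numbers with the others.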
